A study of Mus musculus with 21 samples.

Results

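The genes described here encode 10 secreted matricellular proteins of mouse bone marrow stroma. They are periostin (*Postn*), the thrombospondins *Thbs1*, *Thbs2*, *Thbs3* and *Thbs4*, the tenascins *Tnc* and *Tnn*, and the SPARC family genes *Sparc*, *Sparcl1* and *Fstl1*. They were chosen by protein family, with earlier results of these data known, and they are 10 of the 26852 genes in the deposited table. All 10 were among the 12976 genes tested, which had a mean level of at least 10 normalized counts over all libraries.

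Matricellular proteins are secreted into the extracellular matrix, where they bind collagens, growth factors and cell surface receptors and change how cells attach, without forming the scaffold of the matrix. SPARC, also called osteonectin, binds collagen and mineral and is abundant in bone, and thrombospondin-1 can release TGF-beta from its latent form. Periostin and tenascin-C are made by stromal cells of bone and marrow and are bound by integrins.

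RNA was sequenced from Nes low mesenchymal cells sorted from the marrow of Nestin reporter mice on the immunodeficient NSG background (21 libraries). Leukemic mice had been transplanted without conditioning, at 8 to 12 weeks of age, with the human acute myeloid leukemia line HL60 or ML1. Both lines release a lipid-permeable mCherry that nearby cells take up, so stromal cells close to leukemia were sorted as ch+ and the remainder as ch- at an early stage. The groups were ctrl (unengrafted mice, 3 libraries), early ch+ (6), early ch- (6) and late (6, sorted without the mCherry marker), with 3 HL60 and 3 ML1 libraries in each leukemic group. All groups share the NSG host, which lacks lymphocytes, and the GFP transgene that marks Nestin+ cells, and the leukemia came from established lines and not from patients. Mice were 13 to 20 weeks old at collection by the study's methods, which also describe removal of CD45+ cells and staining for CD45, Ter119 and CD31 before the sort.

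Values are regularized log2 levels as deposited. Read counts were not used here. The study's methods state a typical read yield over all its libraries, and the depth of single libraries was not recovered from these values. Regularization draws the values of weakly expressed genes together, which makes their changes look smaller. A level of 1 gene can be compared between libraries, and the members were compared with each other only per kilobase of exon. Ranks among all genes, and the most abundant gene of a list, are not corrected for length. Each difference is a log2 fold change from limma with its standard error (SE), and a gene was called higher or lower at an adjusted p under 0.1. Where sets of libraries are said not to overlap, the share of all genes that also do not overlap is not given. Such statements describe the values and are not tests. The labels do not say whether libraries of a group came from separate animals, nor which ch+ and ch- samples came from the same mouse, so each p measures the spread between these samples, part of which may be technical. No dates are given, so neither cell line nor stage can be told apart from any batch. Library numbers run in separate stretches for ctrl, late HL60, early HL60, early ML1 and late ML1, and no ctrl library lies within the early or late ones.

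The labels of the 3 late ML1 libraries conflict. Their title and time point say late leukemia with ML1, while their treatment field says unengrafted, as for ctrl. They were kept as late ML1, and late differences are given with them and for HL60 alone. The HL60 against ML1 difference in late cannot be given without them, and the mean levels of the sorting markers in late pool both lines. The extraction protocol also names CD31+ endothelial cells, while the source is given as Nes low mesenchymal cells. *Nes* had a mean level of 7.39 in ctrl, 7.32 in early ch-, 7.30 in early ch+ and 7.30 in late. *Pecam1*, which encodes CD31, had means of 5.59, 5.54, 5.74 and 4.87 in the same groups. *Nes* had a log2 fold change of -0.09 in late against ctrl (adjusted p = 0.881), or 0.60 when each library was rescaled to its summed signal (adjusted p = 0.0862). In late HL60 alone it stood at -0.47 (adjusted p = 0.370), or 0.10 after rescaling. *Ptprc*, which encodes the leukocyte antigen CD45, had means of 2.56 in ctrl, 4.21 in early ch-, 4.79 in early ch+ and 2.43 in late.

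In unengrafted mice *Sparc* was by far the most abundant of the 10 transcripts. Per kilobase its mean level in ctrl was 16.64 on the log2 scale, followed by *Tnc* at 10.79, *Thbs1* at 10.69, *Sparcl1* at 10.56 and *Fstl1* at 10.04. *Thbs4* (8.89) and *Postn* (8.78) came next, and *Thbs2* (6.89), *Thbs3* (5.78) and *Tnn* (5.03) were the least abundant. *Sparc* ranked 5 or 6 among all genes of the table in each ctrl library, before any correction for length, and held 2.83% to 3.30% of the summed linear signal. It ranked 5 and held 1.64% to 1.95% in late HL60, and it ranked 6 or 7 and held 0.719% to 0.844% in late ML1. *Fstl1* moved from the fifth place per kilobase in ctrl to the second in late, with a mean of 11.69 above *Tnc* at 10.77, or 11.79 and 11.11 in late HL60 alone.

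Late leukemia was compared with ctrl to ask what the niche cells of a heavily engrafted marrow express. Transcripts of *Sparc*, *Sparcl1*, *Thbs1* and *Thbs4* were lower in late leukemia than in unengrafted mice, and those of *Fstl1* were higher. So 1 member was called higher and 4 lower of 10, while 10.2% of the 12976 tested genes were called higher and 11.4% lower. The median log2 fold change of the 10 members was -0.37, beside 0.02 for all tested genes, and it became 0.33 when each library was rescaled to its summed signal. That rescaling moved the all-gene median from 0.02 to 0.71, because the summed linear signal of the late libraries was lower than that of ctrl. A single ribosomal RNA gene, named after its value was seen (*CT010467.1*), made up 29.7% to 34.2% of that sum in ctrl, 24.1% to 26.2% in late HL60 and 16.8% to 22.6% in late ML1, and sums without it were not tried. In bulk samples, fewer cells of a type and less RNA per cell cannot be told apart.

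*Sparc* encodes the collagen-binding glycoprotein osteonectin. Its level was 18.58, 18.48 and 18.62 in the ctrl libraries (373, 374 and 375), 17.38, 17.35 and 17.07 in late HL60 (397, 398 and 399) and 15.94, 15.67 and 15.76 in late ML1 (581, 582 and 583). All 6 late libraries lay below all ctrl libraries, and the ML1 values lay below the HL60 values without overlap. Late against ctrl, *Sparc* had a log2 fold change of -2.03 (SE 0.29, adjusted p = 5.17e-06), or 4.09 times lower. Quantile normalization reduced this change to -0.19 (adjusted p = 0.673) and turned the change in late HL60 alone to 0.11. Quantile normalization gives each gene the mean value of its rank, and the rank of *Sparc* hardly differed between ctrl and late. The reversal therefore follows from how that method is built.

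*Sparcl1*, or hevin, is a relative of SPARC with an anti-adhesive role that is also found around blood vessels. Its ctrl levels were 11.85, 12.66 and 11.83, those of late HL60 were 10.91, 11.01 and 10.93, and those of late ML1 were 10.29, 9.47 and 10.09. Every late library lay below every ctrl library, again with ML1 lowest. *Sparcl1* fell by 1.66 on the log2 scale (SE 0.25, adjusted p = 1.50e-05), or 3.17 times.

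*Fstl1*, follistatin-like 1, carries a follistatin domain like SPARC and is a secreted glycoprotein of mesenchymal cells. Its levels of 12.32, 12.25 and 12.44 in ctrl compare with 14.01, 13.96 and 14.29 in late HL60 and 13.88, 13.86 and 13.94 in late ML1. All 6 late libraries were above ctrl, in a narrow range for both lines. *Fstl1* was 3.14 times higher in late, a log2 fold change of 1.65 (SE 0.13, adjusted p = 6.64e-10). Among the 12976 genes its log2 fold change ranked 174 from the highest, or 122 in late HL60 alone.

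*Thbs1* encodes thrombospondin-1, which binds CD47 and CD36 on cells. Its ctrl levels were 13.24, 13.23 and 13.41, against 11.41, 11.49 and 11.61 in late HL60 and 11.87, 11.34 and 12.40 in late ML1. All late libraries were below ctrl, and the lines overlapped, since ML1 replicate 582 was the lowest and 583 the highest of the late group. *Thbs1* was 3.05 times lower in late (log2 fold change -1.61, SE 0.16, adjusted p = 4.58e-08).

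*Thbs4* encodes a thrombospondin of tendon, muscle and other connective tissue that assembles as a pentamer. Its levels were 10.71, 10.51 and 10.62 in ctrl, 9.36, 9.67 and 9.37 in late HL60 and 7.46, 6.13 and 7.40 in late ML1. The ctrl libraries were the highest, the HL60 libraries were intermediate, and the ML1 libraries were lowest with no overlap. *Thbs4* had a log2 fold change of -2.38 in late against ctrl (SE 0.53, adjusted p = 0.00151), or 5.20 times lower.

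**Figure D1:**
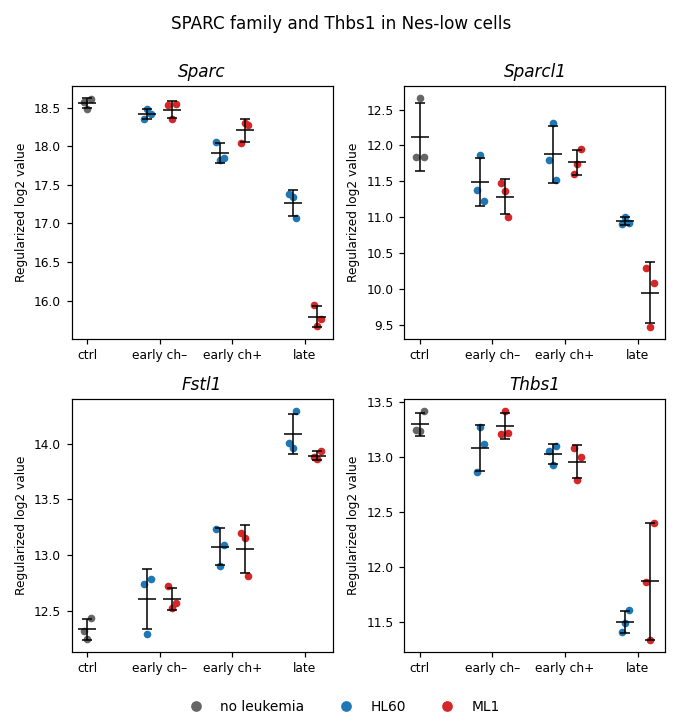
Regularized log2 levels of *Sparc*, *Sparcl1*, *Fstl1* and *Thbs1* in each library (grey, no leukemia; blue, HL60; red, ML1), with the mean and SD of each set of 3 in black. Mean *Sparc* was 18.56 in ctrl, 17.26 in late HL60 and 15.79 in late ML1, and mean *Fstl1* was 12.34, 14.09 and 13.89 in the same sets; quantile normalization turned the difference in *Sparc* between late HL60 and ctrl to 0.11.

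The remaining members did not pass the test in late against ctrl when both lines were pooled. *Postn*, the periostin gene, had a log2 fold change of -0.71 (adjusted p = 0.219). *Thbs2*, an inhibitor of blood vessel growth, stood at 0.27, *Thbs3* at 0.03, *Tnc* at -0.03 (0.19 under quantile normalization) and the tenascin gene *Tnn* at 0.08. Rescaling to the summed signal turned *Tnc* to 0.66 and called it, and it also called *Thbs2* at 0.97 (adjusted p = 0.0201) and *Thbs3* at 0.72 (adjusted p = 0.0441). The 5 calls in late against ctrl were kept in each of the 21 fits that left out 1 library.

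Late HL60 alone against ctrl gave a similar picture for 5 of these genes and added *Thbs2*. *Thbs1* (log2 fold change -1.79, SE 0.17), *Sparc* (-1.30, SE 0.12) and *Sparcl1* (-1.17, SE 0.22) were lower, and *Fstl1* was higher (1.75, SE 0.13), with adjusted p of 5.57e-09, 3.05e-09, 0.000346 and 1.58e-10. *Thbs4* was lower by a smaller margin (-1.14, SE 0.37, adjusted p = 0.0434), and *Thbs2* was higher (0.75, SE 0.27, adjusted p = 0.0797). Thus 2 members were called higher and 4 lower, beside 6.46% and 7.24% of all tested genes. The median of the members was -0.06, beside 0.01 for all genes, and it rose above 0 under quantile normalization (0.06) and rescaling (0.51).

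The *Thbs4* and *Thbs2* calls in late HL60 against ctrl depended on single libraries and on settings of the fit. Both were lost without the filter on low values (adjusted p = 0.263 for *Thbs4* and 0.306 for *Thbs2*) and without the mean-variance trend (0.143 and 0.196). *Thbs4* lost its call without ctrl replicate 373 (adjusted p = 0.110), ctrl replicate 375 (0.1004), late replicate 397 (0.122) or late replicate 399 (0.124), and also after rescaling (-0.57, adjusted p = 0.218). *Thbs2* lost its call without ctrl replicate 373 (0.177), ctrl replicate 374 (0.192), late replicate 398 (0.170) or late replicate 399 (0.268). *Tnn*, with a log2 fold change of 1.05 (adjusted p = 0.105), was called without ctrl replicate 373 (0.0465), late replicate 583 (0.0955), early ch+ replicate 539 (0.0522) or early ch+ replicate 541 (0.0403), and *Tnc* (0.32, adjusted p = 0.275) was called without ctrl replicate 375 (0.0344). Both were also called higher under quantile normalization, *Tnc* at 0.72 (adjusted p = 0.00339) and *Tnn* at 1.06 (adjusted p = 0.0968), and after rescaling, *Tnc* at 0.89 (adjusted p = 0.000269) and *Tnn* at 1.62 (adjusted p = 0.00370).

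In late ML1 against ctrl *Postn* was among the genes called lower. *Postn* levels were 12.06, 11.92 and 11.72 in ctrl, 10.69, 10.40 and 10.32 in late ML1, and 11.81, 12.01 and 11.93 in late HL60. The ML1 libraries lay below all ctrl libraries, whereas the HL60 libraries fell within the ctrl range. *Postn* had a log2 fold change of -1.43 in late ML1 (SE 0.18, adjusted p = 6.50e-07) and of 0.02 in late HL60 (adjusted p = 0.976), or -0.002 under quantile normalization. After rescaling, the change in late HL60 was 0.59 (adjusted p = 0.0245).

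*Sparc* (-2.77, SE 0.12, adjusted p = 1.84e-17), *Sparcl1* (-2.16, SE 0.22, adjusted p = 6.76e-09) and *Thbs4* (-3.61, SE 0.37, adjusted p = 9.08e-09) also fell in late ML1 against ctrl. *Thbs1* fell by 1.43 (SE 0.17, adjusted p = 9.23e-08), and *Fstl1* rose by 1.55 (SE 0.13, adjusted p = 2.51e-10). So 1 member was called higher and 5 lower, beside 9.89% and 12.1% of all genes. The median of the members was -1.15, beside 0.03 for all genes. Rescaling turned *Thbs2* from -0.20 to 0.61 and *Tnc* from -0.38 to 0.44, both then called higher, and it called *Thbs3* at 1.01 (adjusted p = 0.00744). *Tnc* was called lower without ctrl replicate 374 (adjusted p = 0.0163), and *Tnn* without ctrl replicate 374 (0.0646) or early ch+ replicates 539 (0.0853) or 541 (0.0696).

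**Figure D2:**
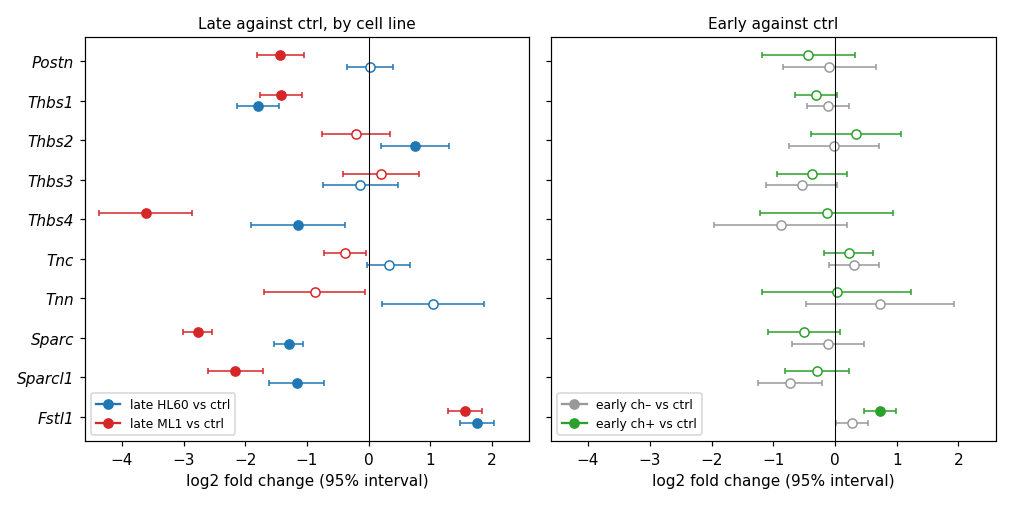
Log2 fold changes with 95% intervals of the 10 members against ctrl, for late HL60 and late ML1 on the left and for early ch- and early ch+ with both lines pooled on the right, with filled points for calls at an adjusted p under 0.1. *Sparc* stood at -1.30 in late HL60 (0.11 under quantile normalization) and -2.77 in late ML1, and *Fstl1* at 1.75 and 1.55.

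The HL60 and ML1 libraries were set against each other within the late group to describe the same sorted population under 2 different leukemias. *Postn*, *Thbs2*, *Thbs4*, *Tnc*, *Tnn*, *Sparc* and *Sparcl1* were all higher with HL60. That made 7 of 10 members higher and 0 lower by limma, beside 3.16% of all genes higher and 0.932% lower, and 909 and 510 genes at an unadjusted p under 0.05. The median of the members was 0.97, beside 0.00 for all genes. Rescaling shifted the all-gene median to -0.24 in this comparison, and 37.0% of the genes then called were higher with HL60, in place of 77.2%.

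*Thbs4* had the widest gap of the 10, at 2.47 (SE 0.37, adjusted p = 3.26e-05), or 5.54 times higher with HL60. Among all tested genes it ranked 21 from the highest. *Tnn*, an integrin-binding tenascin of bone surfaces and periosteum, had levels of 8.32, 9.02 and 8.51 in late HL60 and 6.89, 7.13 and 6.07 in late ML1, beside 8.21, 6.95 and 7.56 in ctrl. The lines did not overlap, and the ctrl libraries lay below every HL60 library and overlapped those of ML1. *Tnn* differed by 1.92 (SE 0.40, adjusted p = 0.00287).

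*Sparc* (1.47, SE 0.12, adjusted p = 2.08e-10), *Postn* (1.45, SE 0.18, adjusted p = 2.45e-06) and *Sparcl1* (1.00, SE 0.22, adjusted p = 0.00455) were higher with HL60 in late with no overlap of the lines. Under quantile normalization *Sparc* differed by 0.61 (adjusted p = 0.121). *Thbs2*, whose late levels were 10.21, 10.46 and 10.69 with HL60 and 9.40, 9.39 and 9.71 with ML1, differed by 0.95 (SE 0.27, adjusted p = 0.0474). *Tnc* levels were 14.30, 13.85 and 14.07 with HL60 and 13.54, 13.12 and 13.46 with ML1, a difference of 0.70 (SE 0.17, adjusted p = 0.0113). The lines did not overlap in either gene. *Thbs1* (-0.37, adjusted p = 0.380), *Thbs3* (-0.33, adjusted p = 0.856) and *Fstl1* (0.19, adjusted p = 0.735, or -0.05 after rescaling) did not pass the test.

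The *Thbs2* call between the lines in late was lost without late replicate 581 (adjusted p = 0.170), 582 (0.167), 398 (0.139) or 399 (0.211), and the *Tnc* call without late replicate 582 (0.105) or 397 (0.112). Without the filter the adjusted p was 0.292 for *Thbs2* and 0.114 for *Tnc*, and without the mean-variance trend it was 0.210 and 0.161. Both calls were also lost after rescaling, at 0.71 for *Thbs2* (adjusted p = 0.168) and 0.45 for *Tnc* (adjusted p = 0.161). *Thbs1* was called lower with HL60 without late replicate 582 (-0.63, adjusted p = 0.0117) and after rescaling (-0.61, adjusted p = 0.0337).

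**Figure D3:**
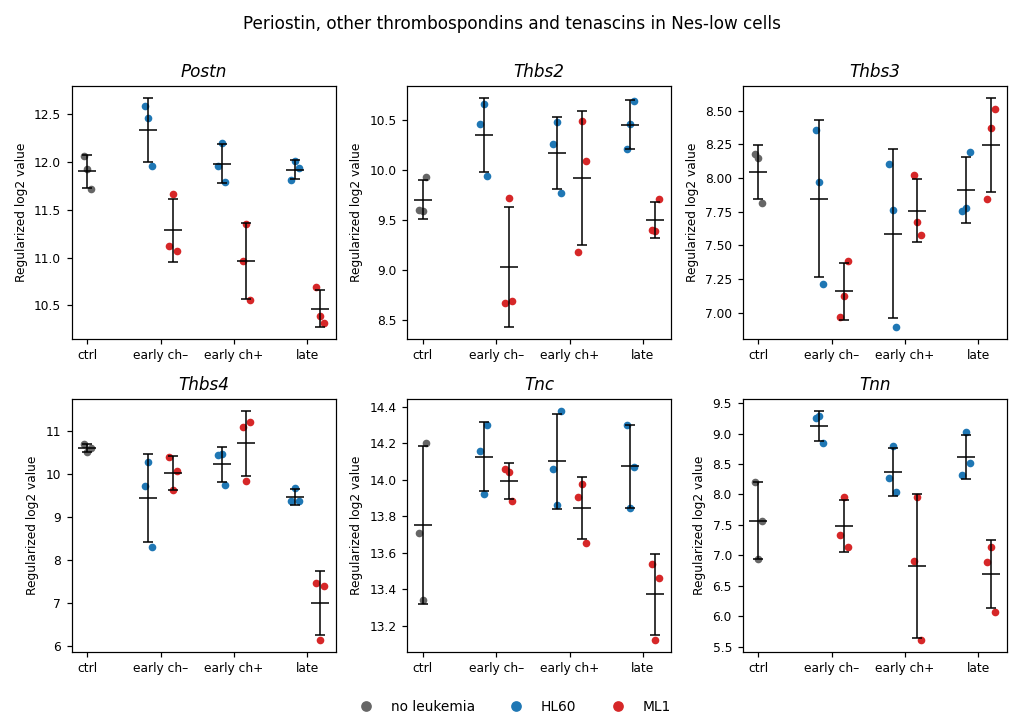
Regularized log2 levels of *Postn*, *Thbs2*, *Thbs3*, *Thbs4*, *Tnc* and *Tnn* in each library (grey, no leukemia; blue, HL60; red, ML1), with the mean and SD of each set of 3 in black. Mean *Postn* was 11.90 in ctrl, 11.92 in late HL60 and 10.47 in late ML1, and mean *Thbs4* was 10.61, 9.47 and 6.998 in the same sets.

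The early ch+ cells were compared with ctrl to describe stroma close to leukemic cells before the marrow is filled. *Fstl1* was the member that passed the test. Its early ch+ levels were 13.23, 12.91 and 13.09 with HL60 and 13.20, 13.16 and 12.81 with ML1, all above the ctrl levels of 12.25 to 12.44. *Fstl1* was 1.66 times higher, a log2 fold change of 0.73 (SE 0.13, adjusted p = 0.000555). So 1 of 10 members was called higher and 0 lower by limma, beside 3.41% and 2.75% of all genes, and 1172 and 1005 genes at an unadjusted p under 0.05. The comparisons of late, early ch+ and early ch- with ctrl share the same 3 ctrl libraries.

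*Sparc* and *Thbs1* were lower in every early ch+ library than in every ctrl library, although neither passed the test with the lines pooled. How many of all tested genes separate in this way is not given. *Sparc* ranged from 17.83 over a median of 18.05 to 18.30 in early ch+, below the lowest ctrl library at 18.48, with a log2 fold change of -0.50 (SE 0.29, adjusted p = 0.397). *Thbs1* ranged from 12.79 over a median of 13.03 to 13.10, below the lowest ctrl library at 13.23, with a log2 fold change of -0.31 (SE 0.16, adjusted p = 0.360). The pooled fit carries the gap between HL60 and ML1 in its spread, and the SE of *Sparc* was 0.12 in the fit of 7 sets that kept the lines apart.

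With the lines kept apart, *Sparc* was called lower in early ch+ than in ctrl for HL60 (-0.65, SE 0.12, adjusted p = 0.000750) and for ML1 (-0.35, SE 0.12, adjusted p = 0.0814). *Fstl1* was called higher for both (0.74 for HL60, adjusted p = 0.000923, and 0.72 for ML1, adjusted p = 0.000914). *Postn* was called lower for ML1 (-0.94, SE 0.18, adjusted p = 0.00161). HL60 thus gave 1 member higher and 1 lower, beside 2.87% and 2.46% of all genes. ML1 gave 1 higher and 2 lower, beside 3.47% and 3.22%. Early contrasts within a cell line were run only as alternatives, without other scalings and without leaving out libraries.

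Early ch- cells, which had not taken up mCherry, had fewer genes called against ctrl than early ch+ cells. Of the 10 members 0 were called higher and 0 lower by limma, beside 1.13% and 0.786% of all genes, and 857 and 692 genes at an unadjusted p under 0.05. All 6 *Thbs4* values in early ch-, from 8.30 over a median of 9.90 to 10.39, lay below the ctrl libraries, with a log2 fold change of -0.88 (SE 0.53, adjusted p = 0.548). *Sparcl1* ranged from 11.01 over 11.37 to 11.87, with 5 of 6 libraries below ctrl and a log2 fold change of -0.72 (SE 0.25, adjusted p = 0.199). *Sparcl1* was called lower without late replicate 582 (adjusted p = 0.0953) and after rescaling (-0.80, adjusted p = 0.0913). The count of all genes called, 249, fell to 136 when either ctrl replicate 374 or ctrl replicate 375 was left out.

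Within HL60, *Tnn* was called higher in early ch- than in ctrl, with levels of 9.25, 9.29 and 8.84 that all exceeded the ctrl range (1.55, SE 0.40, adjusted p = 0.0551). That was 1 member higher and 0 lower, beside 0.894% and 0.678% of all genes, and 777 and 611 genes at an unadjusted p under 0.05 by limma. Within ML1, *Postn* (-0.62, SE 0.18, adjusted p = 0.0987) and *Sparcl1* (-0.83, SE 0.22, adjusted p = 0.0519) were called lower. That was 0 members higher and 2 lower, beside 1.42% and 0.925%, and 873 and 770 genes at an unadjusted p under 0.05.

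Early ch+ cells were also compared with early ch- cells, without pairing, since no label ties a ch+ library to a ch- library. *Fstl1* was higher in all 6 ch+ libraries (12.81 to 13.23) than in all 6 ch- libraries (12.30 to 12.79). Its log2 fold change was 0.46 (SE 0.10, adjusted p = 0.00635), or 1.37 times. This was 1 member higher and 0 lower of 10, beside 3.58% and 2.68% of all genes, and 1006 and 997 genes at an unadjusted p under 0.05 by limma. *Sparc* was lower in all 6 ch+ libraries than in all 6 ch- libraries, which ran from 18.35 to 18.54, with a pooled log2 fold change of -0.39 (adjusted p = 0.446). In the same comparison 9 of 11 tested chondrocyte markers (median -3.08) and 8 of 10 smooth muscle markers (median -1.69) were lower. The part of these markers in the results for the members was not tested. *Sparcl1*, at 0.43 (adjusted p = 0.308), was called higher after rescaling (0.58, adjusted p = 0.0575). The spread in this fit comes from all groups, late included. In a fit of the 12 early libraries alone, chosen after seeing the data, *Sparc* was called lower (SE 0.09, adjusted p = 0.00402) and *Sparcl1* higher (SE 0.13, adjusted p = 0.0513). With the line as a term in that fit, *Thbs4* was also called higher (0.74, adjusted p = 0.0829). With the order of the numbers as a replicate block, *Thbs4* was called higher (adjusted p = 0.000976) and *Postn* and *Tnn* lower. *Postn* stood at -0.34 (adjusted p = 0.0336) and *Tnn* at -0.71 (adjusted p = 0.0398) there, though this order was not taken to pair the samples.

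With the lines apart, *Sparc* was called lower in ch+ than in ch- for HL60 (-0.51, SE 0.12, adjusted p = 0.00882), and *Fstl1* was called higher for HL60 (0.47, adjusted p = 0.0555) and for ML1 (0.45, adjusted p = 0.0686). *Thbs2* was called higher in ch+ for ML1 (0.89, SE 0.27, adjusted p = 0.0761), with levels of 9.17, 10.49 and 10.09 in ch+ and 8.67, 9.72 and 8.69 in ch- that overlapped. HL60 gave 1 member higher and 1 lower, beside 2.27% and 1.66% of all genes. ML1 gave 2 higher and 0 lower, beside 2.34% and 1.91%, and 866 and 921 genes at an unadjusted p under 0.05 by limma.

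From the early to the late stage the same 5 genes were called as against ctrl. Late against early ch+, *Sparc* had a log2 fold change of -1.53 (SE 0.23, adjusted p = 1.24e-05), *Sparcl1* of -1.37 (SE 0.21, adjusted p = 1.04e-05), *Thbs1* of -1.30 (SE 0.13, adjusted p = 2.25e-08) and *Thbs4* of -2.24 (SE 0.43, adjusted p = 0.000274). *Fstl1* was higher by 0.92 (SE 0.10, adjusted p = 1.17e-07). None of these 5 genes overlapped between late and early ch+. The counts were 1 higher and 4 lower of 10, beside 8.79% and 10.9% of all genes.

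Scaling mattered in late against early ch+. *Sparc* turned to 0.16 under quantile normalization, and rescaling moved the all-gene median from 0.02 to 0.63 and that of the members from -0.26 to 0.35. Rescaling also turned *Thbs2* from -0.07 to 0.55 and *Tnc* from -0.25 to 0.37, both then called higher, and called *Thbs3* at 1.02 (adjusted p = 0.00121).

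In HL60 libraries alone, *Thbs1* (-1.52), *Sparc* (-0.65) and *Sparcl1* (-0.93) were lower and *Fstl1* (1.01) was higher in late than in early ch+, beside 5.95% of all genes lower and 4.25% higher. *Thbs4* was not called there (-0.76, adjusted p = 0.269). In ML1 libraries alone, 1 member was higher and 6 were lower, beside 7.07% and 9.83%. *Sparc* (-2.42), *Sparcl1* (-1.81), *Thbs4* (-3.72) and *Thbs1* (-1.09) fell, *Fstl1* rose by 0.84, and *Postn* (-0.49, adjusted p = 0.0802) and *Tnc* (-0.47, adjusted p = 0.0609) were also called lower.

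Late against early ch-, *Sparc* had a log2 fold change of -1.92 (SE 0.23, adjusted p = 2.92e-07), *Sparcl1* of -0.94 (SE 0.21, adjusted p = 0.00120), *Thbs1* of -1.49 (SE 0.13, adjusted p = 1.90e-09) and *Thbs4* of -1.50 (SE 0.43, adjusted p = 0.0124). *Fstl1* was higher by 1.38 (SE 0.10, adjusted p = 8.95e-11). *Thbs3*, a thrombospondin expressed in the skeleton, was called higher as well, at 0.57 (SE 0.23, adjusted p = 0.0836), with levels from 7.76 over 8.02 to 8.51 in late and from 6.97 over 7.30 to 8.35 in early ch-. *Thbs3* values of the groups overlapped. The counts were 2 higher and 4 lower, beside 10.2% and 12.3% of all genes.

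The *Thbs3* call in late against early ch- was lost without late replicates 582 (adjusted p = 0.168), 583 (0.198) or 399 (0.135) and without early ch- replicates 529 (0.160), 543 (0.195), 544 (0.167) or 546 (0.131). It was also lost without the filter (0.130) and without the mean-variance trend (0.113). *Postn* (-0.61, adjusted p = 0.181, or 0.15 after rescaling) was called lower without late replicates 398 (0.0789) or 399 (0.0943) or early ch- replicate 546 (0.0962). *Tnc* (-0.34, adjusted p = 0.166) was called lower without late replicates 397 (0.0410) or 399 (0.0985), and rescaling turned it to 0.43, called higher. With cell line as a term in the fit, *Postn* (-0.61, adjusted p = 0.00170) and *Tnc* (-0.34, adjusted p = 0.0920) were both called lower. Under quantile normalization *Sparc* was no longer called (-0.25, adjusted p = 0.434). Rescaling moved the all-gene median from 0.00 to 0.77 and the members' median from -0.63 to 0.14, ended the call of *Sparcl1* (-0.17, adjusted p = 0.398) and called *Thbs2* higher at 1.06 (adjusted p = 0.00191).

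In HL60 libraries alone, *Thbs1* (-1.58) and *Sparc* (-1.15) were lower and *Fstl1* (1.48) was higher in late than in early ch-. That was 1 member higher and 2 lower, beside 5.66% and 6.48% of all genes. *Thbs4* stood at 0.03 there, *Sparcl1* at -0.54 (adjusted p = 0.135) and *Thbs3* at 0.06 (adjusted p = 0.955). In ML1 libraries alone, *Thbs3* (1.08, adjusted p = 0.0113) and *Fstl1* (1.28) were higher. *Sparc* (-2.69), *Thbs4* (-3.03), *Thbs1* (-1.41), *Sparcl1* (-1.34), *Postn* (-0.81) and *Tnc* (-0.62) were lower in ML1, so that 2 members were higher and 6 lower, beside 7.89% and 10.4%.

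At the early stage few genes were called between the HL60 and ML1 libraries, and *Postn* was among them. In early ch+, *Postn* levels were 11.96, 12.19 and 11.78 with HL60 and 10.96, 11.35 and 10.56 with ML1. In early ch- they were 12.58, 12.46 and 11.96 with HL60 and 11.12, 11.66 and 11.06 with ML1. In both groups the lines did not overlap. *Postn* was 2.02 times higher with HL60 in ch+ (log2 fold change 1.02, SE 0.18, adjusted p = 0.0410) and 2.07 times higher in ch- (1.05, SE 0.18, adjusted p = 0.0503).

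In early ch+ *Postn* was 1 of 2 genes called between the lines. The other was *Aspn*, named after its value was seen, which encodes the collagen-binding proteoglycan asporin (2.03, SE 0.37, adjusted p = 0.0410). This gave 1 member higher and 0 lower by limma, beside 0.0154% and 0% of all genes, and 565 and 423 genes at an unadjusted p under 0.05. The *Postn* call in ch+ was lost without early ch+ replicates 523 (adjusted p = 0.226), 524 (0.252) or 541 (0.344), without the filter (0.173) and without the mean-variance trend (0.321), and *Tnn* (1.54, adjusted p = 0.328) was called without early ch+ replicate 539 (2.11, adjusted p = 0.0424). The 2 genes called became 0 without replicates 523, 524 or 541, 4 without 525 or 539, 6 without 538 and 5 without early ch- replicate 527.

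In early ch- *Postn* and *Thbs2* were 2 of 7 genes called between the lines. *Thbs2* levels were 10.45, 10.65 and 9.93 with HL60 and 8.67, 9.72 and 8.69 with ML1, without overlap (1.32, SE 0.27, adjusted p = 0.0882). The other genes, named after their values were seen, were *Col12a1* (0.90), *Mfap4* (2.08) and *Gm38211* (1.64), higher with HL60, and *Gemin7* (-2.05) and *Csmd1* (-0.88), lower. This gave 2 members higher and 0 lower by limma, beside 0.0385% and 0.0154% of all genes, and 430 and 455 genes at an unadjusted p under 0.05. *Tnn* was also higher in all 3 HL60 libraries than in all 3 ML1 libraries here (1.65, adjusted p = 0.276), and it was called without early ch+ replicates 539 (0.0997) or 541 (0.0868).

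Both calls between the lines in early ch- depended on single libraries and on settings of the fit. The *Postn* call was lost without early ch- replicates 527 (adjusted p = 0.170), 528 (0.190), 543 (0.113) or 546 (0.152). Without the filter the adjusted p was 0.193 for *Postn* and 0.437 for *Thbs2*, and without the mean-variance trend it was 0.313 and 0.346. The *Thbs2* call was lost without ctrl replicates 373 (0.104), 374 (0.10003) or 375 (0.105), without late replicates 581 (0.124), 582 (0.103), 583 (0.115), 397 (0.117), 398 (0.119) or 399 (0.122), without early ch+ replicates 523 (0.1005) or 525 (0.104), and without early ch- replicates 527 (0.283), 528 (0.506), 543 (0.381) or 546 (0.293). The 7 genes called became 0 without early ch- replicates 527, 543 or 546, 1 without late replicates 581, 398 or 399 or early ch+ replicate 525, and 2 without ctrl replicate 375, late replicate 397, early ch+ replicate 523 or early ch- replicate 528. They became 3 without ctrl replicate 373 or late replicate 582, and 4 without late replicate 583 or early ch+ replicate 538.

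Across the 7 sets of 3 libraries, the members fell into different orders. *Sparc* was highest in ctrl (mean 18.56 ± 0.07, SD), then in early ch- with ML1 (18.48 ± 0.11) and HL60 (18.42 ± 0.06), all overlapping their neighbour. After a gap came early ch+ with ML1 (18.21 ± 0.15) and HL60 (17.91 ± 0.13), which overlapped each other, then late HL60 (17.26 ± 0.17) and late ML1 (15.79 ± 0.14), each apart from its neighbours. *Fstl1* ran nearly the opposite way, from late HL60 (14.09 ± 0.18) and late ML1 (13.89 ± 0.04), which did not overlap, through early ch+ (13.08 ± 0.16 and 13.06 ± 0.21) to early ch- (12.61 ± 0.27 with HL60 and 12.61 ± 0.10 with ML1) and ctrl (12.34 ± 0.09). Neighbouring *Fstl1* sets were apart between late and early ch+ and between early ch+ and early ch-, while early ch- and ctrl overlapped.

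For *Thbs1*, neighbouring ctrl and early sets (means 13.30 to 12.96) overlapped, although every early ch+ library lay below every ctrl library, and the late sets (11.87 ± 0.53 for ML1 and 11.50 ± 0.10 for HL60) lay below all of these. *Sparcl1* fell from ctrl (12.11 ± 0.47) through overlapping early sets to 11.29 ± 0.25 in early ch- ML1, and then without overlap to late HL60 (10.95 ± 0.05) and late ML1 (9.95 ± 0.43). *Thbs4* was highest in early ch+ ML1 (10.72 ± 0.76) and ctrl (10.61 ± 0.10), and late ML1 (6.998 ± 0.75) was set apart below early ch- HL60 (9.44 ± 1.02).

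The order of *Postn* placed ctrl and all HL60 sets above all ML1 sets. It ran from early ch- HL60 (12.33 ± 0.33) through early ch+ HL60 (11.98 ± 0.20), late HL60 (11.92 ± 0.10) and ctrl (11.90 ± 0.17), all overlapping, and after a gap to early ch- ML1 (11.28 ± 0.33), early ch+ ML1 (10.96 ± 0.40) and late ML1 (10.47 ± 0.19). *Tnn* also had its HL60 sets on top, led by early ch- (9.13 ± 0.25), and late ML1 at the bottom (6.70 ± 0.56). Neighbouring sets overlapped at every step for *Tnn*, *Thbs2*, *Thbs3* and *Tnc*. The range of set means was 10.45 to 9.03 for *Thbs2*, 8.24 to 7.16 for *Thbs3* and 14.13 to 13.37 for *Tnc*.

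Over the 21 libraries, *Thbs4* and *Sparcl1* had a Pearson correlation of 0.882, and *Postn* and *Tnn* one of 0.878. *Sparc* had one of 0.832 with *Thbs4*, 0.830 with *Sparcl1*, 0.784 with *Thbs1* and -0.824 with *Fstl1*. *Thbs1* and *Fstl1* had a correlation of -0.903. The libraries fall into the groups above, so these values describe group differences and carry no p. Among all other genes, *Prex1* (0.991) and the type I collagen gene *Col1a2* (0.990) were most like *Sparc*, and *Olfml2b* (0.973) and the mesenchymal homeobox gene *Prrx1* (0.970) were most like *Fstl1*. *Lrrc15* (0.883) and *Aspn* (0.842) were most like *Postn*, and *Aspn* (0.854) and *Lrrc15* (0.781) most like *Tnn*.

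*Thbs1* was followed most closely by *Sh3pxd2b* (0.949) and *Creb3l1* (0.932), *Thbs4* by *Srgap3* (0.944) and *Nbl1* (0.894), and *Sparcl1* by the caveolin gene *Cav1* (0.932) and *Vkorc1* (0.930). The closest genes were less alike for *Tnc* (*Fras1*, 0.825, and *Dpysl3*, 0.760), *Thbs3* (*Lingo1*, 0.775, and *Vdac2*, 0.731) and *Thbs2* (*Zfp60*, 0.713, and *Stk25*, 0.708).

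Related matricellular genes moved in both directions in late against ctrl. Of 18 listed relatives 15 were tested (*Tnr*, *Spock1* and *Spock3* were below the filter), with 6 higher and 4 lower and a median log2 fold change of 0.03. *Comp*, the thrombospondin-5 gene of cartilage, was lower (-3.34), as was the tenascin gene *Tnxb* (-2.01), while the SPARC relative *Smoc1* (1.88) and the activin antagonist *Fst* (1.88) were higher. In late HL60 alone these genes stood at -2.17, -1.28, 1.97 and 2.55, all called. Late HL60 alone gave 6 higher and 2 lower (median 0.59). Between the lines in late, 7 of these 15 relatives were higher with HL60 and 1 was lower (median 0.78).

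Receptors of the members or of collagen were called in both directions. Of 21 receptor genes tested, 5 were higher and 3 lower in late against ctrl, with a median of 0.12, beside 10.2% and 11.4% of all genes. The integrin subunit *Itga9* (1.81), which binds tenascin-C, and the syndecan *Sdc1* (0.96) were higher, and the tenascin-binding phosphatase *Ptprz1* (-1.07) and the collagen receptor *Ddr2* (-0.70) were lower. In late HL60 alone these genes stood at 1.80, 0.93, -0.71 and -0.63, all called. *Cd47*, a thrombospondin-1 receptor, was among the genes called higher (0.51, adjusted p = 0.00238), and *Cd36* (-0.53, adjusted p = 0.342, or 0.16 after rescaling) did not pass the test. In late HL60 alone *Cd47* stood at 0.46 (adjusted p = 0.0203) and *Cd36* at -0.53 (adjusted p = 0.497, or 0.04 after rescaling). Of 9 TGF-beta ligand, receptor and latency genes, 4 were higher and 1 lower (median 0.24), with *Tgfb3* (1.74) and *Ltbp2* (1.34) higher and *Tgfbr2* (-0.72) lower. Late HL60 alone gave 4 higher and 3 lower receptor genes (median -0.07, or 0.50 after rescaling), beside 6.46% and 7.24% of all genes, and 4 higher and 0 lower TGF-beta genes (median 0.16). *Tgfb3* (1.72) and *Ltbp2* (1.16) were called there, and *Tgfbr2* was not (-0.37, adjusted p = 0.177, or 0.20 after rescaling).

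Of 12 collagens, fibronectin and collagen-processing enzymes that bind or act on the members, 2 were higher and 9 lower in late against ctrl (median -1.004). *Col1a1* (-2.92) and *Col1a2* (-2.72), the type I collagen chains that SPARC binds, were lower, and *Col6a1* (1.52) and *Col3a1* (1.02) were higher. Late HL60 alone gave 2 higher and 8 lower of these 12 genes (median -0.83), with *Col1a1* at -1.67, *Col1a2* at -1.59, *Col6a1* at 1.13 and *Col3a1* at 1.11, all called. Rescaling adds the same amount to every gene of a comparison, and it brought the median in late against ctrl closer to 0 without changing its sign.

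Osteoblast markers were lower in late, as *Sparc*, *Sparcl1*, *Thbs1* and *Thbs4* were. Of 10 osteoblast markers, all past the filter and with *Col1a1* the most abundant (mean 19.27), 0 were higher and 8 lower in late against ctrl (median -2.19), among them the osteocalcin genes *Bglap* (-3.97) and *Bglap2* (-3.90). Their summed level on the log2 scale was 20.24, 20.39 and 20.69 in ctrl, 18.54, 18.86 and 18.89 in late HL60 and 15.96, 16.22 and 16.76 in late ML1. In early ch+ it ran from 19.82 over 19.89 to 20.06, and in early ch- from 19.95 over 20.24 to 20.45. Late HL60 alone had 0 higher and 8 lower of 10 (median -1.18, *Bglap* -2.31 and *Bglap2* -2.32, both called), and HL60 exceeded ML1 in late for 9 of 10 (median 2.06). Late against early ch+, 0 were higher and 8 lower (median -1.74), and against early ch- 0 and 10 (median -2.16). In HL60 libraries alone 1 was higher and 8 lower against early ch+ (median -0.80), and 0 and 8 against early ch- (median -1.17). *Col1a1* is counted both here and among the matrix partners. *Spp1*, which the paper names among osteolineage genes, was listed with the matricellular relatives and went the other way. Its mean was 13.92 in ctrl (13.81 to 14.07) and 14.47 in late with the lines pooled (13.89 to 15.24), and these ranges overlapped.

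Of 12 chondrocyte markers, 11 were tested (*Matn1* was below the filter), and 0 were higher and 11 lower in late against ctrl (median -3.61), with *Matn3* (-4.16) and *Col9a3* (-4.12) showing the widest change and *Col11a1* the most abundant (14.30). Their summed level was 16.94, 17.27 and 17.76 in ctrl, 14.42, 14.80 and 14.94 in late HL60 and 12.38, 12.55 and 12.90 in late ML1. It ran from 16.41 to 17.09 in early ch- and from 15.44 to 16.17 in early ch+, where 9 of 11 genes were lower than in ctrl (median -3.95). Late against early ch+, 3 of 11 were lower (median 0.12), or 2 of 11 in HL60 libraries alone (median 0.41), while *Sparc*, *Sparcl1*, *Thbs1* and *Thbs4* were all called lower with the lines pooled. Against early ch- cells, 11 of 11 were lower in late (median -3.03), or 10 of 11 in HL60 libraries alone (median -2.23). These members were called lower there as well, with the lines pooled. In late, 7 of the 11 genes were higher with HL60 than with ML1 (median 1.99), and late HL60 alone had 11 of 11 below ctrl (median -2.80, *Matn3* -3.11 and *Col9a3* -2.81). The part of the osteoblast and chondrocyte markers in the results for the members was not tested.

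Of 10 markers of CAR cells, the reticular stromal cells that secrete CXCL12, 8 were higher and 1 lower in late against ctrl (median 0.95), as *Fstl1* was. *Lepr* (1.97) and *Ebf3* (1.66) were higher, *Pdgfra* was lower (-0.38, or 0.32 after rescaling), all 10 passed the filter, and *Cxcl12* was the most abundant (15.84). Their summed level was 15.55, 15.77 and 16.18 in ctrl, from 15.63 to 16.56 in early ch-, from 16.34 to 16.90 in early ch+, from 16.78 to 17.11 in late HL60 and from 16.79 to 16.996 in late ML1. Late against early ch+, where *Fstl1* rose by 0.92, 3 were higher and 3 lower (median 0.14). In HL60 libraries alone 2 were higher and 1 lower there (median 0.31). Against early ch- cells, 8 were higher and 2 lower in late (median 0.59). In early ch+ against early ch- cells, 2 were higher and 0 lower (median 0.29). In early ch+ 8 of 10 were higher than in ctrl (median 0.80), and in late HL60 alone against ctrl 7 of 10 (median 0.96). There *Lepr* (1.79) and *Ebf3* (1.4997) were called, and *Pdgfra* was not (-0.19, adjusted p = 0.407, or 0.38 and called higher after rescaling). Their part in the result for *Fstl1* was not tested.

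Of 10 smooth muscle markers 0 were higher and 7 lower in late against ctrl (median -0.97, with *Myh11* at -1.95 and *Myocd* at -1.77), and of 5 tested tendon and ligament markers 1 was higher and 2 lower (median -1.18, with *Mkx* at 0.79, *Prg4* at -3.84 and *Fmod* at -2.326). The tendon genes *Tnmd*, *Scx* and *Kera* were below the filter. The most abundant genes were *Rgs5* (12.54) and *Prg4* (15.31). Summed smooth muscle levels were 14.25, 14.69 and 15.15 in ctrl and ran from 13.72 to 13.80 in late HL60 and from 13.46 to 13.71 in late ML1. In early ch+ they ran from 13.09 to 13.46, with 8 of 10 genes lower than in ctrl (median -1.97), and in early ch- from 13.82 to 14.58. Late against early ch+, 6 of 10 smooth muscle markers were higher (median 0.76), or 4 of 10 in HL60 libraries alone (median 0.86), whereas *Thbs4* and *Sparcl1* were lower with the lines pooled. Against early ch- cells, 0 were higher and 5 lower in late (median -0.57), or 0 and 2 in HL60 libraries alone (median -0.54). *Thbs4* and *Sparcl1* were lower there as well, with the lines pooled. Against ctrl, late HL60 alone had 6 of 10 smooth muscle markers lower (median -1.03) and 2 of 5 tendon markers lower (median -0.44, or 0.13 after rescaling). *Myh11* (-1.53), *Myocd* (-1.42), *Prg4* (-2.68) and *Fmod* (-1.20) were called there, and *Mkx* (0.83, adjusted p = 0.132) was not.

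Summed tendon and ligament levels ran from 16.26 to 17.18 in ctrl, from 13.96 to 14.86 in early ch-, from 17.61 to 18.84 in early ch+, from 13.82 to 14.98 in late HL60 and from 11.88 to 12.16 in late ML1. These sums are mostly *Prg4*, at a mean of 18.18 in early ch+ and 14.08 in early ch-. Of the 5 genes, 0 were higher and 2 lower in early ch+ than in ctrl (median -0.47), and 1 was higher and 2 lower in early ch+ than in early ch- (median -0.97). In late against early ch+ cells, 1 was higher and 1 lower (median 0.19), as in HL60 libraries alone (median 0.82). Against early ch- cells, 0 were higher and 3 lower in late (median -1.13), or 0 and 0 in HL60 alone (median -0.24). The part of the smooth muscle, tendon and ligament markers in the early and late results for the members was not tested.

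Markers of neutrophils and red cells were high at the early stage, although CD45+ cells had been depleted and CD45 and Ter119 stained at the sort. All 10 neutrophil markers and all 7 red cell markers in the table (*Ahsp* was not in it) were higher in both early ch+ and early ch- than in ctrl, with medians of 3.18 and 3.13 for neutrophil genes and 4.02 and 3.96 for red cell genes. Summed neutrophil levels were 6.61, 6.62 and 9.01 in ctrl, from 10.37 to 11.60 in early ch-, from 10.05 to 11.42 in early ch+, from 6.42 to 6.92 in late HL60 and from 6.43 to 6.74 in late ML1. *S100a9* (6.71) and *Hbb-bs* (9.13) were the most abundant of the 2 lists. In late against ctrl 2 neutrophil genes (*Ngp*, -1.63, and *Mpo*, -1.46) and 4 red cell genes (among them *Hbb-bs*, -2.96, and *Hba-a1*, -2.39) were lower, with medians of -0.19 (0.50 after rescaling) and -1.89. The *Ngp* and *Mpo* changes rest on the highest ctrl value of each gene. In ctrl *Ngp* ran from 3.56 over 3.63 to 7.85 and *Mpo* from 3.26 over 3.48 to 7.16, beside late means of 3.38 and 3.18. Late HL60 alone had 0 neutrophil genes lower (*Ngp*, -1.38, and *Mpo*, -1.42) and 4 red cell genes lower (*Hbb-bs*, -2.92, and *Hba-a1*, -2.23). Late against early ch+ all 10 neutrophil and all 7 red cell markers were lower (medians -3.35 and -5.71), as they were against early ch- (-3.32 and -5.49) and in HL60 libraries alone (-3.23 and -5.64 against ch+). The part of these markers in the early results for *Fstl1* and *Sparc*, and in the late against early results for the members, was not tested.

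The other marker lists had few tested or called genes in late against ctrl. Of 7 tested endothelial markers 0 were called in either direction by limma (median -0.53, or 0.16 after rescaling), and *Cdh5* (6.40) was the most abundant. Late HL60 alone also had 0 of 7 called (median -0.13, or 0.44 after rescaling), while late ML1 had 5 of 7 lower (median -1.02), and their part in the result for *Sparcl1* was not tested. Late against early ch+, 4 of 7 were lower (median -0.87), or 1 of 7 in HL60 libraries alone (median -0.72). Platelet markers had 0 of 2 tested genes called (median -0.42, or 0.27 after rescaling), with *Pf4* and *Itga2b* among the 8 below the filter, and late HL60 alone also had 0 of 2 (median -0.27, or 0.30 after rescaling). These counts of 0 stand beside 1727 genes higher and 1849 lower at an unadjusted p under 0.05, or 1333 and 1436 in late HL60 alone. Of 6 skeletal muscle markers 2 were lower (*Acta1*, -1.65, and *Actn3*, -1.34), and late HL60 alone had 1 lower (*Acta1*, -1.56, beside *Actn3* at -0.95, adjusted p = 0.358). Of the same 6 genes 5 were higher in early ch+ than in ctrl (median 2.10), while 0 were called by limma in early ch- against ctrl (median 1.33). In late 5 were lower than in early ch+ (median -2.44) and than in early ch- (median -1.62), also in HL60 libraries alone (medians -1.99 and -1.81).

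Promoter sequence was available from RefSeq (GRCm38.p6) for 8 of the 10 members, with 10 windows in all, and *Thbs1* and *Sparcl1* had none. Each window was taken as the 250 bases before the annotated start. Shown are the windows of *Postn*, *Thbs2*, *Thbs4* and *Tnc*, since each of these genes was called higher with HL60 than with ML1 in late. The *Thbs2* and *Tnc* calls depended on single libraries and on settings, as given above. Over the 21 libraries, Pearson correlations among these genes ran from 0.103 (*Thbs2* and *Thbs4*) to 0.582 (*Postn* and *Thbs2*). The windows shown also hold 0 bases of GENCODE exons. Sequences run 5′ to 3′ on the strand of the gene, with capitals for motif matches on either strand.
Postn, chr3:54360857-54361106, plus strand: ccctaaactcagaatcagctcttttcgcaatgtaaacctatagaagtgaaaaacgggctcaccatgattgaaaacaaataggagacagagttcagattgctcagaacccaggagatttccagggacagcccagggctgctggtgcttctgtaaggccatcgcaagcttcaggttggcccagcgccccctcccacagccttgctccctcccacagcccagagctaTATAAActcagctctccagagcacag
Thbs2, chr17:14694263-14694512, minus strand: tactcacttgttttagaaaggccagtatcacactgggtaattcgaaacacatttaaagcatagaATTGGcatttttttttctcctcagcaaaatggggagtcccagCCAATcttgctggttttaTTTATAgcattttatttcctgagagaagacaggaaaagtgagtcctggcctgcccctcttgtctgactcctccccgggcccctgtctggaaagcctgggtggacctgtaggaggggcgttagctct
Thbs4, chr13:92794819-92795068, minus strand: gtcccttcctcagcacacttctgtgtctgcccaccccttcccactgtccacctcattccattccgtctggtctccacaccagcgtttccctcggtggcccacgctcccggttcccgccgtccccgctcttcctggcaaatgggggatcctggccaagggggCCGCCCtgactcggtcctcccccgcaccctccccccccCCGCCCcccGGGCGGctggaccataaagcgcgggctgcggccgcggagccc
Tnc, chr4:64047016-64047265, minus strand: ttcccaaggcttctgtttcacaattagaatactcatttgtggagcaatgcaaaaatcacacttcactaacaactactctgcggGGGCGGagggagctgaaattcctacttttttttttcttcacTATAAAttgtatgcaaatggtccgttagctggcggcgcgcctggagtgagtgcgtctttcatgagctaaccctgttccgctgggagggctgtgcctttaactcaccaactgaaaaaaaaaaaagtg

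The motifs searched were the TATA box (TATAAA), the CCAAT box (spelled CCAAT), the GC box (GGGCGG), the AP-1 motif (TGANTCA), a RUNX motif (TGTGGT) and the CArG box. Of all 32851 promoter windows of this length, 12.4% held the TATA box, 33.8% the CCAAT box, 32.7% the GC box, 6.75% the AP-1 motif, 14.0% the RUNX motif and 1.47% the CArG box. The *Postn* window shown held 1 TATA box, starting 26 bases before the start, and its other window (chr3:54359017-54359266, also without exon bases) held 0 matches of any of the 6 motifs. *Thbs2* held 1 TATA box, 126 bases before the start and on the opposite strand, and 2 CCAAT boxes. *Thbs4* held 3 GC boxes, and *Tnc* held 1 TATA box, 126 bases before the start, and 1 GC box. No AP-1, RUNX or CArG match was found in the 10 windows of the members, which says only that these letters are absent there. Matches describe the sequence and are not shown to be bound.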

How the data were processed

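The authors aligned reads to mm10 and counted them per gene (STAR 2.5.1b, RSEM 1.2.29 and DESeq2 1.10.1 in the submitters' processing notes), and deposited normalized, regularized values. The study's methods name a log10 transformation, but the deposited values run from -2.33 to 22.44 and were read as log2. Ensembl identifiers were matched to symbols with a reference list of gene names, and gene positions and exon lengths came from GENCODE M21. Genes with a mean of at least 3.32 (10 normalized counts) over the 21 libraries were tested with limma 3.58.1 (R 4.3.3) and its trended variance prior, in a fit of 4 groups with both lines pooled and in a fit of 7 sets with the lines apart. Tests were two-sided. P-values were adjusted by Benjamini-Hochberg over 12976 genes and called under 0.1. Results for HL60 or ML1 alone are contrasts of the 7-set fit. The members and gene lists were chosen with earlier results of these data known.

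Named genes are the 10 members, up to 4 genes of each list with the largest called changes in late against ctrl (2 in each direction), and for each member the 2 genes with the highest Pearson correlation. *Cd47*, *Cd36* and other genes named outside this rule were chosen after their values were seen. Alternatives were no filter, quantile normalization, rescaling to the summed linear signal, centring on the median, no trend, cell line as a term, a threshold of 0.05, each line alone, and leaving out each library. Figures were drawn with Python 3.11.15 and matplotlib 3.10.9.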

Additional observations from a re-analysis of the deposited data

Results flagged for a closer look

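Values of each member in the leukemic groups of 6 libraries were searched for a library far from the others, which chance gives in about 1 of 20 groups. Of 30 groups, 2 held such a library. *Thbs4* in early ch- replicate 529 (HL60) was 8.30, below the other libraries of its group. *Fstl1* in late replicate 399 (HL60) was 14.29, above the others.

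The lines also differed for several members by limma. In late, the log2 fold change of HL60 over ML1 was 1.45 for *Postn*, 0.95 for *Thbs2*, 2.47 for *Thbs4*, 0.70 for *Tnc*, 1.92 for *Tnn*, 1.47 for *Sparc* and 1.00 for *Sparcl1*. In early ch+ it was 1.02 for *Postn*. In early ch- it was 1.05 for *Postn* and 1.32 for *Thbs2*. The late ML1 libraries are those whose treatment label conflicts with their title, and cell line and batch cannot be told apart.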

How the results depend on the processing

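Each of 110 member results was recomputed under 13 alternatives and after leaving out each of the 21 libraries where these applied. Over all of these, 3020 values kept their call or stayed without one, 58 gained a call and 73 lost one in the same direction, and 9 reversed with a call in either fit. Of the 3020, 72 changed sign without a call.

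Without the filter, 4515 genes were called in late against early ch- (1331 higher). For HL60 against ML1, 8 genes and 0 members were called in early ch+, and 1 gene and 0 members in early ch-. More genes were then tested. Under quantile normalization *Sparc* reversed in late against early ch+ (0.16) and in late HL60 against ctrl (0.11), which its nearly constant rank produces, and 4 genes were called between the lines in early ch+.

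Rescaling raises late libraries, whose summed signal is low, by construction. It called 8302 genes in late against ctrl, 93.8% of them higher in place of 47.3%. It called 9031 in late against early ch+, 10161 in late against early ch-, 5527 in late HL60 against ctrl and 8781 in late ML1 against ctrl. The share higher became 93.5% (from 44.6%), 95.3% (from 45.3%), 93.1% (from 47.1%) and 93.1% (from 45.0%) in these, and 37.0% (from 77.2%) for HL60 against ML1 in late. It became 66.7% (from 55.4%) in early ch+ against ctrl, 41.9% (from 59.0%) in early ch- against ctrl, 78.6% (from 57.1%) in early ch+ against early ch- and 85.7% (from 71.4%) between the lines in early ch-. *Tnc* reversed in late against ctrl (0.66), early ch+ (0.37) and early ch- (0.43) and in late ML1 against ctrl (0.44). *Thbs2* reversed in late against early ch+ (0.55) and in late ML1 against ctrl (0.61). Members called became 8 in late against ctrl and 8 in late against early ch+ (4 higher in each), 1 in early ch- against ctrl and 2 in early ch+ against early ch-.

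Without the mean-variance trend, 0 genes and 0 members were called by limma between the lines in early ch+ and in early ch-, where 565 and 430 genes were higher at an unadjusted p under 0.05 in the fit with the trend. The cause was not tested. At a threshold of 0.05, 512 genes were called in early ch+ against ctrl and 156 in early ch- against ctrl, and 0 genes and 0 members between the lines in early ch-.

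With HL60 alone, genes called became 1778 in late against ctrl, 509 in early ch+ against early ch-, 1323 in late against early ch+ and 1575 in late against early ch-. Members called became 2 in early ch+ against ctrl, 1 in early ch- against ctrl, 2 in early ch+ against early ch- and 3 in late against early ch-, where *Thbs4* reversed (0.0286). With ML1 alone, members called became 3 in early ch+ against ctrl, 2 in early ch- against ctrl and 2 in early ch+ against early ch-. Each of these rests on fewer libraries.

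The other 4 alternatives were chosen after seeing the data, for early ch+ against early ch-. The numbers of these libraries run in parallel within a line but are not shared. Put side by side in order, the deviations of the 6 possible pairs from their set means correlated at -0.02 to 0.05, with 0 over 0.1, and 2 ch+ and 3 ch- libraries correlated best with their own partner. So the order of the numbers was not taken to pair the samples. As a replicate block this order gave 847 genes in place of 812, and the same 1 member. With the 12 early libraries alone, 865 genes and 3 members were called, 912 genes and 4 members with the line as a term, and 945 genes and 6 members (3 higher) with the replicate block, which also holds the line.

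Leaving out 1 library gave 136 to 280 genes and 0 to 1 members in early ch- against ctrl. Between the lines it gave 0 to 6 genes and 0 to 2 members in early ch+, and 0 to 10 genes and 0 to 3 members in early ch-. The calls of *Thbs1*, *Thbs4*, *Sparc*, *Sparcl1* and *Fstl1* in late against ctrl and in late against each early group were kept in all 21 of these fits.

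The depth of single libraries was not recovered from the values, and counting error was not estimated. Regularization lowers changes of genes near the floor of the values, and no member was tested for this.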
